A study of Arabidopsis thaliana with 24 samples.

Results

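The genes described here are 10 genes of sulfate assimilation in Arabidopsis thaliana, chosen by name from a table of 34218 genes. They are the APS reductase genes APR1, APR2 and APR3, the ATP sulfurylase genes APS1, APS2, APS3 and APS4, the sulfite reductase gene SIR, and the sulfur deficiency response genes SDI1 and LSU1. RNA was sequenced from fully expanded leaves of 24 plants in 6 groups of 4, with 4 leaves taken from each plant. The groups were wild type Col-0, the BBX32-10 line and the hy5-2 mutant, each in low light (LL) and after high light (HL). All plants were 35 days old and had grown at 23 °C in a cycle of 8 h light and 16 h dark at 150 µmol m-2 s-1, the light level of the LL groups. The HL plants received 1100 ± 100 µmol m-2 s-1 of white LED light for 3.5 h, from 1 h after subjective dawn. BBX32-10 over-expresses BBX32, a B-box protein of light signalling, in the Col-0 background and is 1 transgenic line. The promoter of its transgene is not given in the sources used here. The hy5-2 mutant is a null allele of HY5, a bZIP transcription factor of the light response, in the same background. The design text asks which genes respond to a short HL exposure through BBX32 and HY5.

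Plants take up sulfate and activate it with ATP by ATP sulfurylase, which gives adenosine 5′-phosphosulfate (APS). APS reductase then reduces APS to sulfite, a step known for strong control of the pathway, and plastid sulfite reductase reduces sulfite to sulfide, which is built into cysteine. In a branch of the pathway APS kinase phosphorylates APS to PAPS, the sulfate donor for glucosinolates and other sulfated compounds. SDI1 and LSU1 transcripts are known to accumulate in sulfur-starved plants, and SDI1 is known as a repressor of glucosinolate synthesis. In leaves the reductive steps run in plastids, and expression of APR genes is known to follow light and the daily cycle.

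ATP sulfurylase genes are known targets of the microRNA miR395, which accumulates in sulfur starvation, so the pairing is shown first because it divides the APS genes. The mature sequences follow from the RefSeq annotation of TAIR10.1, 5′ to 3′, with the seed (bases 2 to 8) in capitals. The loci a, d and e share the first and the loci b, c and f the second, and all 6 share the seed.
miR395a, d and e: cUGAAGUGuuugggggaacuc
miR395b, c and f: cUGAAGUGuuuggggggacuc
The best matching site in each of the following transcripts lies in the coding sequence and is written 5′ to 3′ as DNA. Capitals mark bases that do not form a Watson–Crick pair with miR395a.
APS1: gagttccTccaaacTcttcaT
APS3: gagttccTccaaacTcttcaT
APS4: gagttccTccaaacacttcaT
SULTR2;1: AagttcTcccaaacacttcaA
The site lies at chr3:8113164-8113184 on the plus strand for APS1, at chr4:8414958-8414978 on the minus strand for APS3 and at chr5:17591121-17591141 on the minus strand for APS4. For SULTR2;1, a sulfate transporter gene and a known target, it lies at chr5:3193268-3193288 on the plus strand. APS1 and APS3 had identical sites with 3 bases outside Watson–Crick pairs, of which 1 was a G:U pair. APS4 had 2 such bases, of which 1 was a G:U pair. The best match in APS2 left 8 of 21 bases outside such pairs, so APS2 stood apart from the other three. All 6 miR395 loci were listed at 0 in every library, and the libraries were made from poly-A RNA, so mature miR395 was not measured.

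Regions of 250 bases upstream of the annotated start were also read, for the core ACGT to which bZIP factors such as HY5 bind and for GAGAC, the core of a known sulfur-responsive element. Those of APR1, APR2 and SDI1 are shown, because these genes differ in how they responded below. Capitals mark ACGT and GAGAC or its complement GTCTC, and each sequence runs 5′ to 3′ toward the gene.
APR1: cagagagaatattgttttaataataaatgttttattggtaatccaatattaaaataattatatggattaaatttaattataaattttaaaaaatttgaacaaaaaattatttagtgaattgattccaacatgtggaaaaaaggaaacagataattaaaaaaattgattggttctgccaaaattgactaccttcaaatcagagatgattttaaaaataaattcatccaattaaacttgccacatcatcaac
APR2: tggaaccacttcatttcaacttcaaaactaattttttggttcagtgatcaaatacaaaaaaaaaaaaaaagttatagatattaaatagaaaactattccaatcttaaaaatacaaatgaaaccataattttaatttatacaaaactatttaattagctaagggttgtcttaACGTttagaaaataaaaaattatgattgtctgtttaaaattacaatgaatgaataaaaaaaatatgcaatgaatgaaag
SDI1: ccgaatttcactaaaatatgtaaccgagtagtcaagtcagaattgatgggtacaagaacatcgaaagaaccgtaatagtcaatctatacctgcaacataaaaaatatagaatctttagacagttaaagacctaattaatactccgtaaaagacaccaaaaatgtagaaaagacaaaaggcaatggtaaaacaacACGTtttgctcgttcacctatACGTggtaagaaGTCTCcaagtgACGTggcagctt
These are chr4:2324628-2324877 on the plus strand for APR1, chr1:22977886-22978135 on the minus strand for APR2 and chr5:19807854-19808103 on the minus strand for SDI1, in TAIR10.1. ACGT was in the upstream region of 5 of the 10 genes, against 44.1% of the 27443 protein-coding nuclear genes. Its first base lay 79 bases before the start in APR2, 80 in SIR, 121 in APS4 and 241 in LSU1, and SDI1 had 3 copies at 56, 35 and 12 bases. GAGAC on either strand was in SDI1 alone of the 10, 23 bases before its start, against 25.8% of all genes. The longer CACGTG, which contains ACGT, was in 0 of the 10 and in 6.5% of all genes. Of the genes without ACGT, APR3 and APS2 were called higher in HL in Col-0, and APR1, APS1 and APS3 were not called there. Of those with ACGT, APR2 was called higher, APS4 lower, and SIR, SDI1 and LSU1 were not called. A link between these letters and the response was not tested. A match describes letters in the window and shows no binding.

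Levels are given as FPKM (fragments scaled to transcript length and library depth), which corrects for length, so levels can be compared between genes. The fragments behind the FPKM values could be recovered and came to between 35408730 and 49341936 per library. The line labels held: under LL the level of BBX32 was 3.30 ± 0.787 FPKM for Col-0 plants and 845 ± 39.1 for BBX32-10 plants (SD, n = 4). That of HY5 was 7.40 ± 0.899 FPKM for Col-0 and 0.711 ± 0.293 for hy5-2. In BBX32-10 HL, BBX32 ranged from 364 in replicate 1 to 1049 FPKM in replicate 4. The 5 mesophyll genes lay between 1930 and 22233 FPKM. EXPA7 and PLT1 were listed at 0 in all 24 libraries, and the summed level of the 4 root markers was at most 0.341 FPKM. The flower markers AP3, PI and AG stayed at or below 0.844 FPKM. SUC2, the marker of phloem companion cells, lay under LL between 60.8 and 83.1 FPKM for Col-0 and between 98.7 and 115 for BBX32-10. In HL it lay between 37.3 and 47.6 in Col-0 and between 68.7 and 107 in BBX32-10, so SUC2 moved with the genes higher in BBX32-10 described below. For hy5-2 it lay between 53.5 and 78.0 in LL and between 35.1 and 39.1 in HL, so in Col-0 and hy5-2 it also moved with the light. The summed guard cell markers MYB60 and FAMA lay between 13.8 and 15.9 FPKM in Col-0 LL, above Col-0 HL (11.4 to 12.8) and BBX32-10 LL (11.3 to 12.5), as APS4 did below. The xylem marker IRX3 lay in HL between 1.46 and 3.01 FPKM for BBX32-10 and between 0.786 and 1.41 for Col-0. The part of these cell types in the results was not tested. In leaf RNA a change in the share of cells of a type and a change of RNA per cell cannot be told apart.

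Changes are differences of log2(FPKM + 1), tested with limma over 17788 genes and all 24 libraries, and a gene was called at a Benjamini-Hochberg adjusted p under 0.05. All 10 genes passed the filter on low values. In the Col-0 response to HL, 4 of the 10 were called, 3 higher and 1 lower, while 51.6% of all genes tested were called, 30.0% higher and 21.6% lower. In the hy5-2 response, 6 were called, 5 higher and 1 lower, against 43.5% of all genes, 23.1% higher and 20.4% lower. In the BBX32-10 response, 2 were called, 1 higher and 1 lower, against 19.6% of all genes, 10.7% higher and 8.85% lower. Between BBX32-10 and Col-0 in LL, 8 were called, 7 higher and 1 lower, against 42.5% of all genes, 25.8% higher and 16.7% lower. In HL the same comparison called 6, 3 higher and 3 lower, against 23.6% of all genes, 10.9% higher and 12.7% lower. The response to HL differed between BBX32-10 and Col-0 for 3 genes, all lower in BBX32-10, against 19.8% of all genes, 6.95% higher and 12.9% lower.

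Between hy5-2 and Col-0, limma called 0 of the 10 in LL, where 0.371% of all genes were called, 0.174% higher and 0.197% lower. In HL it called 0, against 2.41% of all genes, 0.349% higher and 2.06% lower. Their responses to HL differed for 0, against 0.652% of all genes, 0.0281% higher and 0.624% lower. At an unadjusted p under 0.05 the counts were 2 in LL, 3 in HL and 0 for the difference of responses. The share of all genes at that threshold was not counted, so these counts cannot be set against it. Voom on the recovered fragments also called 0 in each. Of 17550 genes it called 25 higher and 30 lower in LL and 61 and 361 in HL. For the difference of responses it called 4 higher and 94 lower. The median log2 difference of the 10 genes between BBX32-10 and Col-0 in LL was 0.55, beside 0.10 over all genes tested. In the HL response the median of the 10 was 0.12 for Col-0, -0.24 for BBX32-10 and 0.38 for hy5-2, beside 0.055, 0.019 and -0.0019 over all genes. The comparisons share control groups and are therefore not independent of each other. The split of all genes into higher and lower depends on scaling: with libraries rescaled by median ratios it was 3488 higher and 3831 lower between BBX32-10 and Col-0 in LL, in place of 4589 and 2974. In the HL response it was 4631 higher and 4907 lower in Col-0, in place of 5340 and 3842, and 1868 and 1943 in BBX32-10, in place of 1912 and 1575. For the difference of the BBX32-10 and Col-0 responses the split was then 1862 higher and 1851 lower, in place of 1236 and 2288. Between hy5-2 and Col-0 in HL it was 94 and 164, in place of 62 and 366, and for the difference of their responses 9 and 36, in place of 5 and 111.

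**Figure D1:**
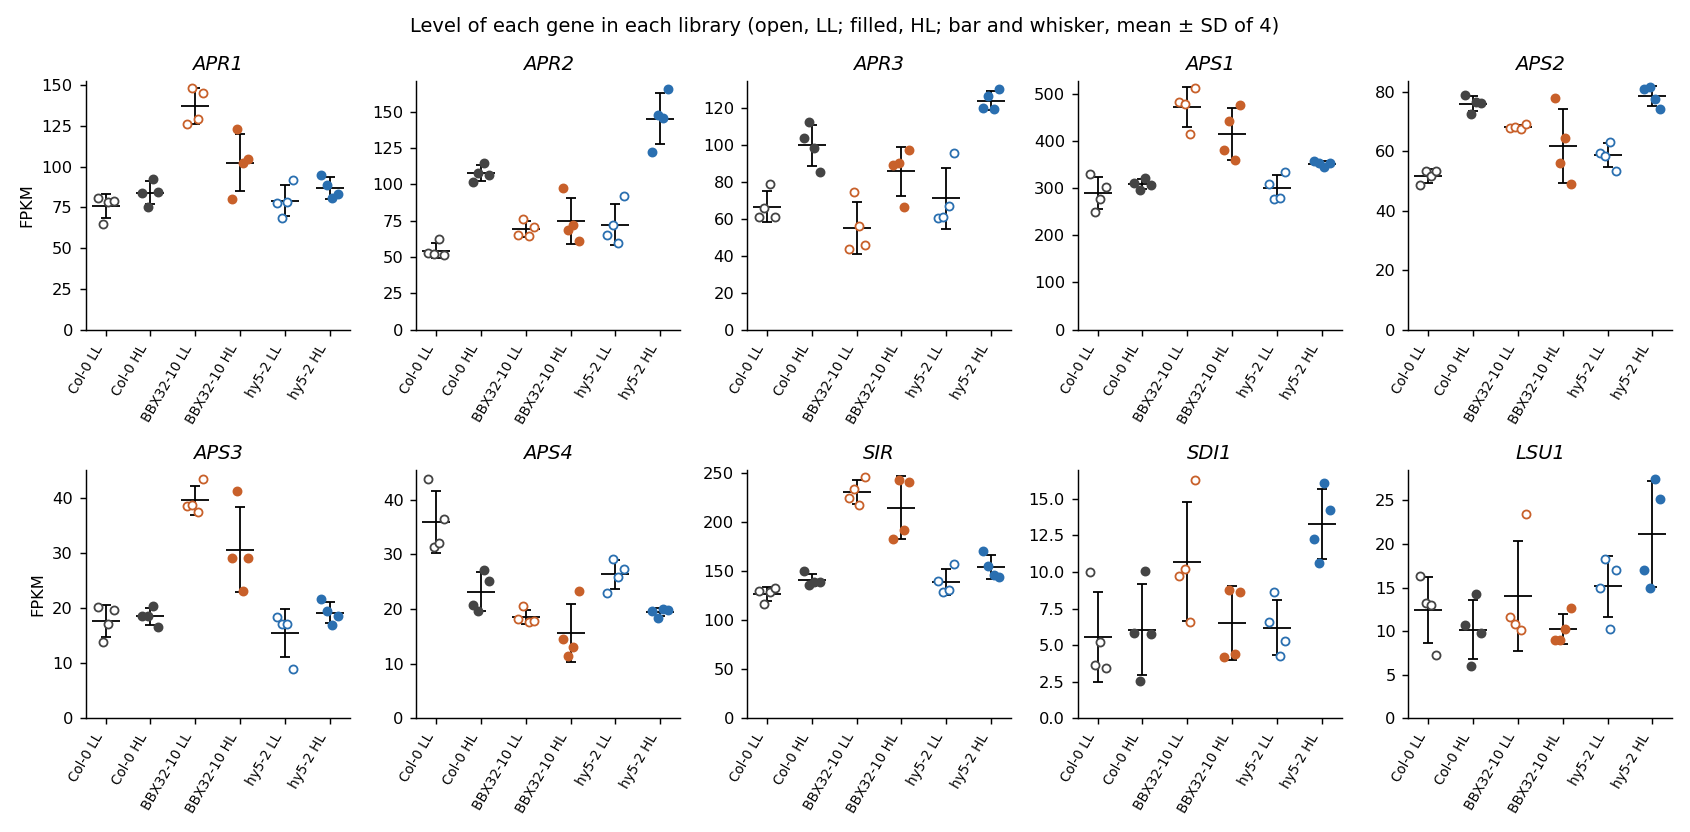
FPKM of each of the 10 genes (vertical axes, from 0) in the 24 libraries by group; open points are LL, filled points HL, and the bar with whisker is the mean ± SD of 4. APS1, APS3 and SIR are high in BBX32-10 in both lights, and APR1 is high in BBX32-10 LL but overlaps Col-0 in HL. APS4 is high in Col-0 LL, and APR2 rises in HL in Col-0 and hy5-2, while its BBX32-10 values overlap between lights.

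The first step is carried by 4 ATP sulfurylase genes, and APS1 (AT3G22890, chr3:8112614-8115024, 5 exons) had the most transcript. For Col-0, APS1 was at 330, 249, 277 and 303 FPKM in LL and at 311, 296, 321 and 306 in HL. The BBX32-10 libraries were at 483, 478, 414 and 513 FPKM in LL and at 381, 442, 359 and 477 in HL. The hy5-2 libraries were at 308, 277, 278 and 335 FPKM in LL and at 357, 352, 345 and 354 in HL. All 8 BBX32-10 libraries lay above all 16 others. APS1 was higher in BBX32-10 than in Col-0 by 0.71 ± 0.095 (log2, SE) in LL and by 0.42 ± 0.095 in HL, with limma adjusted p of 3.9e-06 and 0.0028. In Col-0 its level did not change detectably in HL, with a log2 difference of 0.10 and a 95% interval from -0.10 to 0.29. In hy5-2 it rose by 0.24 (limma adjusted p = 0.0477), which stayed called in 1 of 8 fits with a library removed and was lost with libraries rescaled by median ratios.

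APS3 (AT4G14680, chr4:8413263-8415650), close in sequence to APS1, showed the largest rise of the family in BBX32-10. Its levels in Col-0 were 20.2, 13.9, 17.2 and 19.8 FPKM in LL and 18.6, 18.7, 20.3 and 16.6 in HL. In BBX32-10 they were 38.6, 38.8, 37.5 and 43.5 in LL and 29.1, 41.4, 23.1 and 29.1 in HL. Every BBX32-10 library was above every Col-0 library, by a mean ratio of 2.23 in LL and 1.65 in HL. The log2 differences were 1.13 ± 0.17 in LL and 0.67 ± 0.17 in HL, with limma adjusted p of 2.11e-05 and 0.00724. In hy5-2, APS3 was at 18.5, 17.2, 17.2 and 9.02 FPKM in LL and at 21.6, 19.5, 17.0 and 18.6 in HL, which overlapped Col-0 in both lights. APS1 and APS3 transcripts are 84.4% identical over 1118 aligned bases, and how fragments that fit both were counted is not given in the sources used here, so their split is uncertain.

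APS2 (AT1G19920, chr1:6914518-6916823), which lacks a close miR395 match, responded to HL in a genotype-dependent way. In Col-0 it was at 48.6, 53.3, 51.8 and 53.3 FPKM in LL and at 78.8, 72.5, 76.7 and 76.4 in HL. Its hy5-2 values were 59.4, 58.5, 63.2 and 53.4 FPKM in LL and 81.1, 81.5, 77.6 and 74.3 in HL. In both genotypes the LL and HL libraries did not overlap, and the APS2 rise was 0.55 ± 0.093 for Col-0 plants and 0.42 ± 0.093 for hy5-2 plants (limma adjusted p of 3.78e-05 and 0.00092). Its BBX32-10 values were 67.8, 68.3, 67.5 and 69.2 FPKM in LL, between the 2 light levels of Col-0, and 78.1, 56.0, 64.5 and 49.1 in HL. Replicate 1 of BBX32-10 HL, the library with the least BBX32 transcript, had the highest APS2 level of its group and lay within the Col-0 HL range. BBX32 in replicates 1 to 4 of that group was 364, 719, 922 and 1049 FPKM, and a link to APS2 was not tested. The HL response of APS2 was lower in BBX32-10 than in Col-0 by a log2 difference of -0.71 ± 0.13 (limma adjusted p = 0.000709). The difference was -0.82 without replicate 1 of BBX32-10 HL. Compared with Col-0, BBX32-10 had more APS2 in LL (0.39, adjusted p = 0.00172) and less in HL (-0.31, adjusted p = 0.0168); the HL call was lost without replicate 2 or replicate 4 of BBX32-10 HL and when those groups alone were fitted. Its annotated locus overlaps AT1G19910 on the opposite strand by 117 bases, a gene at 91.2 to 144 FPKM, and whether counting used the strand is not given in the sources used here.

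APS4 (AT5G43780, chr5:17589394-17591737) moved against its relatives. In Col-0 it was at 43.8, 31.3, 32.0 and 36.5 FPKM in LL and at 20.7, 19.6, 27.1 and 25.1 in HL, without overlap. For BBX32-10 the levels were 18.2, 20.5, 17.7 and 17.7 FPKM in LL and 14.5, 11.5, 13.0 and 23.4 in HL. For hy5-2 the levels were 23.0, 29.2, 25.8 and 27.3 FPKM in LL and 19.7, 18.4, 20.0 and 19.9 in HL. APS4 was thus highest in Col-0 LL, where all 4 libraries lay above the 20 others. It fell by 0.61 ± 0.15 in HL in Col-0 (limma adjusted p = 0.00168), and in hy5-2 it fell by 0.41 ± 0.15 (adjusted p = 0.031). It was lower in BBX32-10 than in Col-0 by -0.91 ± 0.15 in LL (adjusted p = 5.1e-05) and by -0.58 ± 0.15 in HL (adjusted p = 0.00755). The call in hy5-2 survived in 4 of 8 fits with a library removed, and the HL difference of BBX32-10 was not called when those groups alone were fitted (adjusted p = 0.0939). The difference of hy5-2 from Col-0 in LL was -0.43 with a 95% interval from -0.74 to -0.11 and an adjusted p of 0.209, so it was not called, although the libraries did not overlap.

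The sum over the ATP sulfurylase genes was 395 ± 41.3 FPKM under LL and 426 ± 16.0 under HL for Col-0 (SD, n = 4). It was 598 ± 44.7 and 523 ± 52.5 in BBX32-10, and 400.1 ± 20.6 and 469 ± 8.10 in hy5-2. APS1 made up between 72.4% and 79.1% of the sum on average in each group. The share of APS4 was 9.05% in Col-0 LL, 5.41% in Col-0 HL, 3.11% in BBX32-10 LL and 2.96% in BBX32-10 HL. For hy5-2 it was 6.60% in LL and 4.15% in HL, so Col-0 LL had the highest APS4 share of the 6 groups. SULTR2;1, with the same kind of miR395 site, had under LL a level of 40.9 ± 3.22 FPKM for Col-0 and 44.2 ± 7.44 for BBX32-10. Its groups overlapped, and limma did not call it in any of the 9 comparisons. The genes with close miR395 matches thus did not move as one: APS1 and APS3 were called higher in BBX32-10, APS4 lower, and SULTR2;1 was not called. Mature miR395 was not measured, and its part in these levels was not tested.

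**Figure D2:**
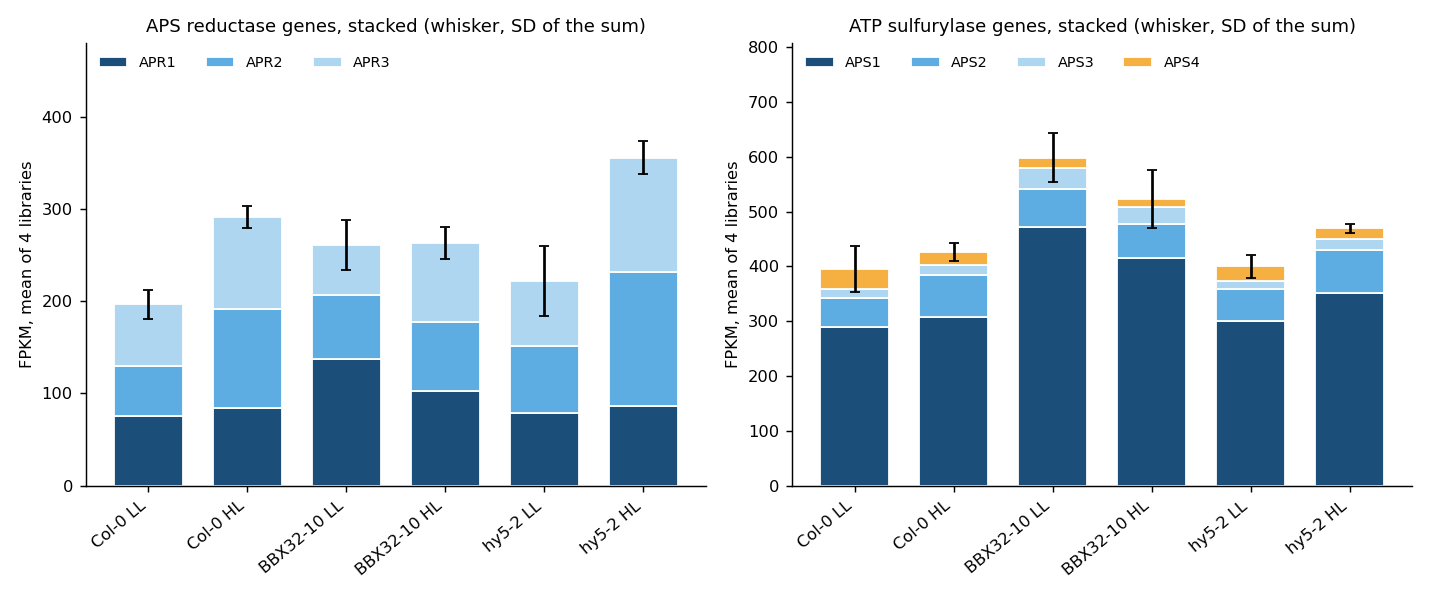
Mean FPKM of 4 libraries (vertical axes, from 0) stacked by gene for the APS reductase genes on the left and the ATP sulfurylase genes on the right, in the 6 groups; whiskers are the SD of the sum. The APS reductase sum rises in HL in Col-0 and hy5-2 and is 261 in LL and 263 in HL in BBX32-10, where APR1 is the largest part in LL.

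APS reductase is encoded by APR1, APR2 and APR3. APR2 and APR3 both rose in HL in Col-0 and hy5-2, whereas no rise of APR1 was called, and of the 3 genes APR1 and APR2 were called higher in BBX32-10 in LL. APR2 (AT1G62180, chr1:22975530-22977885), known to provide most APS reductase activity of Arabidopsis leaves, had Col-0 levels of 52.4, 52.0, 62.2 and 51.0 FPKM under LL and 102, 108, 115 and 106 under HL. Plants of hy5-2 had 65.4, 72.0, 59.3 and 91.8 FPKM in LL and 122, 148, 146 and 165 in HL. Neither genotype had any overlap between LL and HL. The APR2 rise was 0.97 ± 0.13 for Col-0 plants and 1.01 ± 0.13 for hy5-2 plants, ratios of means of 1.98 and 2.01, with limma adjusted p of 1.87e-06 and 2.29e-06. Plants of BBX32-10 had 65.4, 76.0, 64.2 and 70.6 FPKM in LL and 97.7, 68.6, 72.1 and 61.2 in HL, which overlapped. Again the highest HL value was that of replicate 1, and a link to its BBX32 level was not tested. The change in BBX32-10 was 0.10 with a 95% interval from -0.17 to 0.36 and was not called. The difference between the BBX32-10 and Col-0 responses was -0.88 ± 0.18 (limma adjusted p = 0.00183), and without replicate 1 of BBX32-10 HL it was -1.01. In HL, APR2 was lower in BBX32-10 than in Col-0 by -0.54 ± 0.13 (adjusted p = 0.00431), and all 4 BBX32-10 libraries lay below all 4 Col-0 libraries. In LL it was higher in BBX32-10 by 0.34 ± 0.13 (adjusted p = 0.0382), but this call survived in 3 of 8 fits with a library removed and was lost with libraries rescaled by median ratios and with the replicate number as a block.

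Between hy5-2 and Col-0, APR2 was higher by 0.39 in LL, with a 95% interval from 0.12 to 0.65, and by 0.42 in HL, with an interval from 0.15 to 0.69. The limma adjusted p were 0.194 and 0.0929, so neither was called, although the HL libraries did not overlap. The response to HL differed between hy5-2 and Col-0 by 0.04, with an interval from -0.34 to 0.41. The APR2 locus overlaps AT1G08477 on the opposite strand over 782 bases and AT1G62170 over 225 bases. The former was listed at 0 in all libraries and the latter at most at 0.0481 FPKM, and how fragments in the overlaps were counted is not given in the sources used here.

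APR1 (AT4G04610, chr4:2324878-2327064) was highest in BBX32-10 LL. In Col-0 it was at 80.7, 64.8, 78.2 and 78.9 FPKM in LL and at 84.1, 74.9, 92.5 and 84.6 in HL. The BBX32-10 libraries were at 126, 148, 129 and 145 FPKM in LL and at 80.1, 123, 102 and 105 in HL. The hy5-2 libraries were at 77.5, 68.6, 78.2 and 91.7 FPKM in LL and at 95.2, 88.8, 80.6 and 83.0 in HL. The BBX32-10 LL libraries lay above all 20 others. APR1 was higher in BBX32-10 than in Col-0 in LL by 0.85 ± 0.11 (limma adjusted p = 2.63e-06), with means in a ratio of 1.81. Under HL it fell by 0.43 ± 0.11 in BBX32-10 (adjusted p = 0.0085, or 0.0627 when those groups alone were fitted), while the changes were 0.15 in Col-0 and 0.14 in hy5-2, neither called. The response in BBX32-10 was below that in Col-0 by -0.58 ± 0.16 (adjusted p = 0.0113). In HL the remaining difference between BBX32-10 and Col-0 was 0.27 with an adjusted p of 0.0806. Without replicate 1 of BBX32-10 HL, the lowest APR1 value of that group, it was 0.38 with an adjusted p of 0.00625 and was called.

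APR3 (AT4G21990, chr4:11657008-11659167) was called higher in HL in all 3 genotypes, the only one of the 10 genes of which this held. In Col-0 it was at 60.8, 65.7, 78.6 and 60.6 FPKM in LL and at 103, 112, 98.2 and 85.4 in HL. Its BBX32-10 values were 43.4, 74.2, 56.0 and 45.5 FPKM in LL and 88.8, 90.0, 66.3 and 97.1 in HL. Its hy5-2 values were 60.4, 61.0, 67.0 and 95.3 FPKM in LL and 119.9, 126, 119 and 129.9 in HL. LL and HL did not overlap in Col-0 and hy5-2, and in BBX32-10 replicate 2 of LL lay above replicate 3 of HL. The rises were 0.58 ± 0.16 for Col-0, 0.65 ± 0.16 for BBX32-10 and 0.82 ± 0.16 for hy5-2, with limma adjusted p of 0.00347, 0.00505 and 0.000217. No difference between genotypes in either light or in the response was called, and the response in BBX32-10 minus that in Col-0 was 0.07 with a 95% interval from -0.39 to 0.53. APR3 thus differed from APR2, whose response in BBX32-10 was below that in Col-0. APR1 and APR3 transcripts are 85.9% identical over 696 aligned bases and APR2 and APR3 82.0% over 678, so part of the fragments could be shared.

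Summed over the 3 genes, APS reductase transcript was 197 ± 15.7 FPKM in LL and 291 ± 12.2 in HL for Col-0, and 222 ± 37.8 and 356 ± 18.2 for hy5-2 (SD, n = 4), without overlap between lights in either. In BBX32-10 the sum was 261 ± 27.2 in LL and 263 ± 17.2 in HL, with full overlap. The composition nonetheless changed there. APR1 was 52.7% ± 2.54 of the sum in BBX32-10 LL and 39.0% ± 6.19 in HL, while APR3 was 20.8% ± 3.47 and 32.4% ± 3.86. In Col-0 the share of APR1 was 38.6% ± 3.41 in LL and 28.9% ± 2.39 in HL, and that of APR2 was 27.7% ± 0.894 and 36.9% ± 1.39. In hy5-2 HL, APR2 was the largest part with 40.7% ± 3.22.

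SIR (AT5G04590, chr5:1319074-1323364, 8 exons) is the single gene of sulfite reductase. In Col-0 it was at 129.6, 117, 129 and 133 FPKM in LL and at 151, 136, 139 and 139 in HL. For BBX32-10 the levels were 224, 233, 218 and 246 FPKM in LL and 183, 243, 191 and 241 in HL. For hy5-2 the levels were 140.4, 129, 131 and 158 FPKM in LL and 171, 156, 146 and 144 in HL. All 8 BBX32-10 libraries lay above all 16 others. SIR was higher in BBX32-10 than in Col-0 by 0.85 ± 0.090 in LL and by 0.59 ± 0.090 in HL, ratios of means of 1.81 and 1.52, with limma adjusted p of 1.6e-07 and 6.6e-05. No HL response of SIR was called: the log2 change was 0.15 for Col-0, -0.11 for BBX32-10 and 0.15 for hy5-2. The Col-0 LL and HL libraries did not overlap, with an adjusted p of 0.173.

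**Figure D3:**
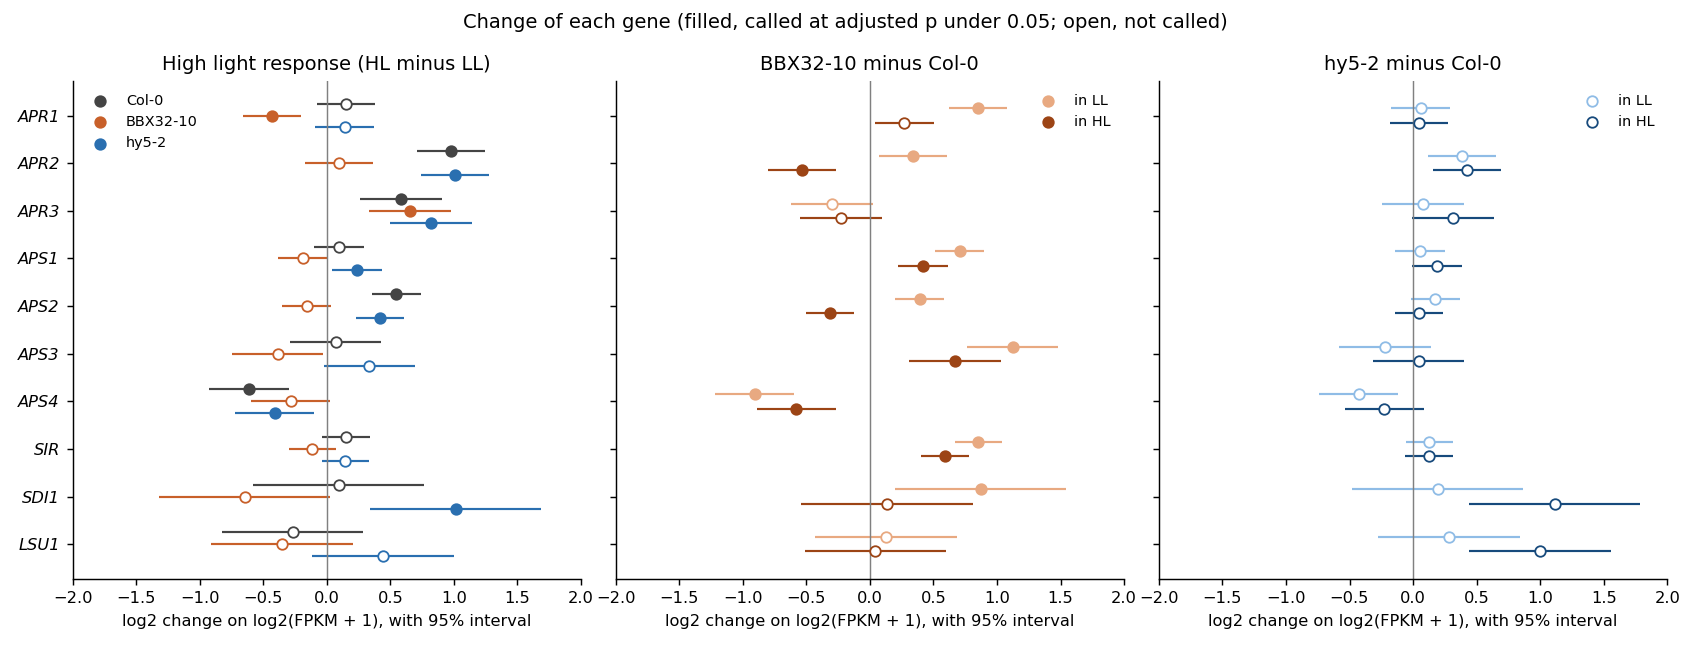
Log2 change with its 95% interval (horizontal axes) for each of the 10 genes in the HL response of the 3 genotypes, in BBX32-10 minus Col-0 and in hy5-2 minus Col-0; filled points were called at an adjusted p under 0.05 and open points were not. In BBX32-10 minus Col-0 in LL, 7 filled points lie to the right of 0 and that of APS4 to the left, and no point of hy5-2 against Col-0 is filled.

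SDI1 (AT5G48850, chr5:19805437-19807853) and LSU1 (AT3G49580, chr3:18374908-18375940) had the lowest mean levels of the genes in Col-0 and varied widely between plants. SDI1 had Col-0 levels of 10.0, 3.67, 5.20 and 3.41 FPKM under LL and 5.81, 2.55, 10.1 and 5.78 under HL. Plants of hy5-2 had 6.60, 8.60, 4.25 and 5.29 FPKM in LL and 12.2, 10.6, 16.1 and 14.3 in HL. All 4 hy5-2 HL libraries lay above all hy5-2 LL and Col-0 libraries. SDI1 rose in HL in hy5-2 by 1.01 ± 0.32 (limma adjusted p = 0.0149), and the call was lost without replicate 3 of hy5-2 LL, with an adjusted p of 0.0517. In Col-0 the change was 0.09 with a 95% interval from -0.58 to 0.77. The difference between these responses was 0.92, with an interval from -0.03 to 1.87 and an adjusted p of 0.44, and was not called. In HL, SDI1 was higher in hy5-2 than in Col-0 by 1.11 ± 0.32, a ratio of means of 2.19, with an adjusted p of 0.0738 that missed the threshold.

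In BBX32-10, SDI1 was at 9.73, 10.2, 6.58 and 16.3 FPKM in LL and at 4.17, 8.76, 4.42 and 8.62 in HL. The LL level was above that of Col-0 by 0.87 ± 0.32 (limma adjusted p = 0.0347), but the groups overlapped, and the call survived in 2 of 8 fits with a library removed and was lost with libraries rescaled by median ratios. The HL response of SDI1 in BBX32-10 was -0.65 with a 95% interval from -1.32 to 0.03 and was not called.

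LSU1, whose protein is known to interact with many partners in sulfur deficiency and other stresses, had Col-0 levels of 16.3, 13.2, 13.0 and 7.26 FPKM under LL and 10.7, 6.04, 14.2 and 9.76 under HL. The hy5-2 libraries were at 15.0, 18.3, 10.2 and 17.0 FPKM in LL and at 17.0, 15.0, 27.4 and 25.2 in HL. Plants of BBX32-10 had 11.7, 10.8, 10.1 and 23.4 FPKM in LL and 8.98, 8.99, 10.2 and 12.6 in HL. The 4 hy5-2 HL libraries lay above the 4 Col-0 HL libraries. The difference there was 1.00 ± 0.27, with a 95% interval from 0.44 to 1.56 and a limma adjusted p of 0.0504, so it just missed the threshold; over the alternatives tried it ranged from 0.0354 to 0.178, and without replicate 3 of Col-0 HL or replicate 2 of hy5-2 HL it was called. With all libraries, no comparison of LSU1 was called.

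SDI1 and LSU1 moved together from plant to plant. Over the 24 libraries Pearson's r of log2(FPKM + 1) was 0.78, and after subtracting group means it was 0.79, as a description of plants that share library and depth. LSU1 was also the gene most like SDI1 among all genes tested, followed by LSU3, of the same gene family, with r of 0.69. The next were APL3, a gene of starch synthesis, with 0.64, CXE7 with 0.63 and AT4G32750 with 0.62. For APR2 the most alike genes over the 24 libraries were FBA1, a plastid fructose-bisphosphate aldolase gene, with r of 0.961, GBSS1, a granule-bound starch synthase gene, with 0.959, and BBX25, of the same family as BBX32, with 0.957. MT2A, a metallothionein gene, followed with 0.956 and AT1G01520 with 0.953. Within groups r for these 5 lay between 0.63 and 0.91. Among the members themselves APS1 and SIR had an r of 0.95 over all libraries and 0.79 within groups, and APR1 and SIR 0.91 and 0.81. APR2 and APR3 had 0.80 and 0.42, and APR2 and APR1 had -0.10 and -0.15.

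**Figure D4:**
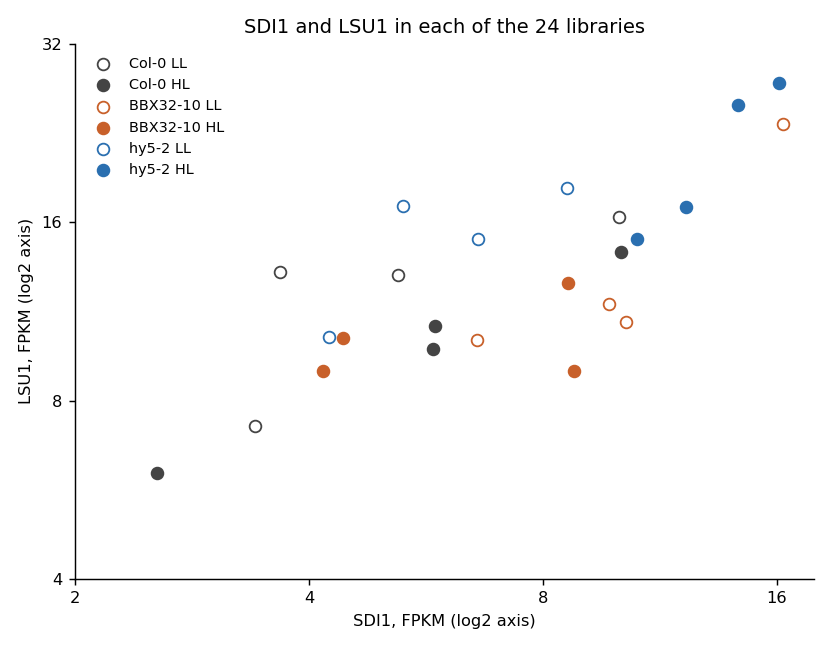
FPKM of SDI1 (horizontal) and LSU1 (vertical) in each of the 24 libraries on log2 axes; open points are LL and filled points HL. The 4 hy5-2 HL libraries lie in the upper right, with 1 BBX32-10 LL library among them, and both genes differ between plants of the same group.

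The other genes of sulfur metabolism were taken from a list of 61 genes in 8 classes, of which 56 could be tested. Between BBX32-10 and Col-0 in LL, 32 of the 56 were called higher and 5 lower, which is 57.1% higher against 25.8% of all genes and 8.93% lower against 16.7%. In the PAPS and sulfation class 8 of 9 genes were higher and 1 lower, with a median log2 difference of 0.80 beside 0.10 over all genes. SOT18, a sulfotransferase of glucosinolate synthesis, had 112 FPKM in BBX32-10 and 54.5 in Col-0 (1.03 ± 0.088, limma adjusted p = 8.55e-09). SAL1, a phosphatase that degrades PAP, the by-product of sulfation, had 153 and 75.1 FPKM (1.01 ± 0.13, adjusted p = 2.14e-06). APK4, an APS kinase gene, was the one that was lower (-0.68), at 1.22 and 2.59 FPKM. The 8 higher genes of this class were thus higher in the same line and light in which APS1, APS3, APR1 and SIR were higher.

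Of 11 cysteine synthesis genes, 3 were higher in that comparison, 27.3% and so near the 25.8% of all genes, among them CS26, the S-sulfocysteine synthase gene (0.67 ± 0.20), and SERAT2;2, a serine acetyltransferase gene (0.66 ± 0.17). Of 7 glutathione genes, 3 were higher, including CLT3, a transporter gene (0.55), and GR1, a glutathione reductase gene (0.45). All 3 methionine genes were higher, led by MS1, a methionine synthase gene, at 1129 and 692 FPKM (0.70) and CGS1, cystathionine gamma-synthase (0.56). Of 4 sulfite and sulfolipid genes, 3 were higher, with UPM1, of siroheme synthesis, which provides the cofactor of sulfite reductase, at 70.9 and 28.7 FPKM (1.27 ± 0.12, limma adjusted p = 2.69e-08). Of 9 sulfate transporter genes, 5 were higher, with SULTR3;3 (0.72) and SULTR2;2 (0.60) leading, and 1 was lower, SULTR3;1 (-0.36, a call that survived in 2 of 8 fits with a library removed).

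The 6 sulfur deficiency markers tested beside SDI1 and LSU1 did not move one way in BBX32-10 LL, with 2 called higher, LSU2 (0.56) and SHM7 (0.36, called in 4 of 8 fits with a library removed and lost with rescaling by median ratios), and 2 lower, LSU4 (-1.10) and GGCT2;1 (-0.69), which degrades glutathione. Of 7 regulators, 5 were higher, with HYH, the close relative of HY5, at 95.8 and 18.8 FPKM (2.29) and HY5 itself at 36.9 and 7.40 (2.17). MYB51, a regulator of indole glucosinolate genes, was lower (-0.92). In HL, 19 of the 56 genes were called higher in BBX32-10 and 4 lower, 33.9% and 7.14% against 10.9% and 12.7% of all genes. SULTR3;3 (1.27) and SOT16 (0.71) were among the higher and LSU4 (-1.08) and GGCT2;1 (-0.83) among the lower. Without replicate 1 of BBX32-10 HL the counts of list genes were 28 and 7. Calls over all genes were not counted in that fit, so a gain over all genes cannot be told apart.

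**Figure D5:**
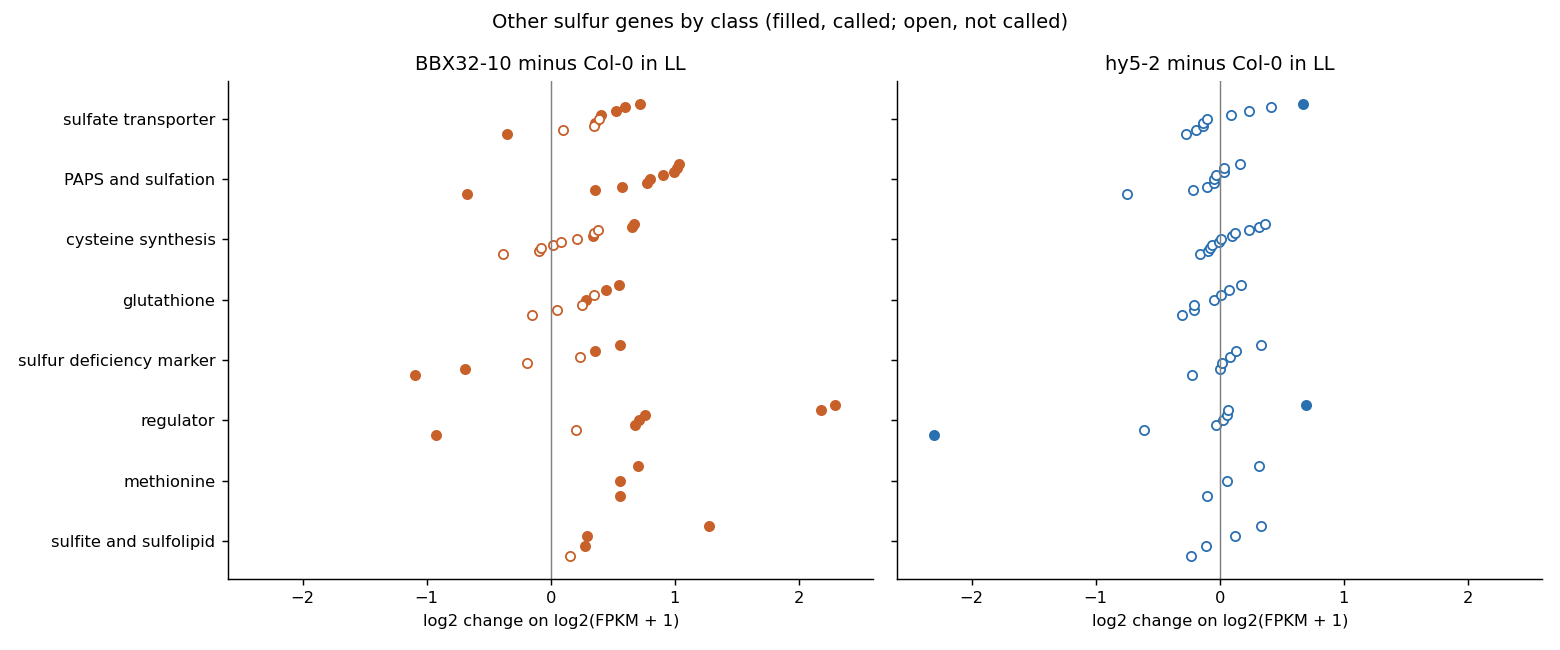
Log2 difference (horizontal axes) of each tested gene of the wider sulfur list by class, in BBX32-10 minus Col-0 in LL on the left and hy5-2 minus Col-0 in LL on the right; filled points were called. On the left 32 filled points lie to the right of 0 and 5 to the left, and on the right 3 points are filled.

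In the response to HL the share of the 56 genes called, taken over both directions, was near that of all genes in each genotype. In Col-0, 18 rose and 7 fell, 44.6% of the 56 against 51.6% of all genes, and the split was 16 and 10 with libraries rescaled by median ratios. In hy5-2, 19 rose and 4 fell, 41.1% against 43.5%, and in BBX32-10, 6 rose and 6 fell, 21.4% against 19.6%. By direction, 33.9% rose and 7.14% fell in hy5-2, against 23.1% and 20.4% of all genes. For Col-0 these shares were 32.1% and 12.5%, against 30.0% and 21.6%. For BBX32-10 they were 10.7% and 10.7%, against 10.7% and 8.85%. In Col-0 the genes that rose included CS26 (1.36), UPM1 (1.23), the transporter gene SULTR3;4 (1.17), SERAT3;2 (1.17), LSU2 (0.97), the sulfolipid synthesis gene SQD1 (0.75) and CGS1 (0.66). MYB51 fell (-1.92) and CYSC1, the mitochondrial cyanoalanine synthase gene, fell (-0.59). The response was below that of Col-0 in BBX32-10 for 10 of the 56 and above it for 2, in all 21.4% against 19.8% of all genes. Among the 10 were HYH (-1.91), HY5 (-1.40), SQD1 (-0.94), UPM1 (-0.88), LSU2 (-0.73), MS1 (-0.69), SOT18 (-0.60) and CGS1 (-0.52), beside APR1, APR2 and APS2 of the 10 genes described above. Of these, HYH, HY5, UPM1, LSU2, MS1, SOT18, CGS1, APR1, APR2 and APS2 were also called higher in BBX32-10 than in Col-0 in LL. The LL call of APR2 survived in 3 of 8 fits with a library removed. Both comparisons use the BBX32-10 LL and Col-0 LL libraries, where a higher BBX32-10 level lowers the difference of responses. Part of this overlap is therefore built in, and its share over all genes was not counted.

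Between hy5-2 and Col-0, 3 of the 56 genes were called in LL, 5.36% against 0.371% of all genes. In HL 2 were called, 3.57% against 2.41%, and the responses to HL differed for 3, 5.36% against 0.652%. HY5, the gene mutated in hy5-2, was among those called each time. Its call follows from the allele and adds to each of these shares of the 56. The shares are therefore not read as a result about the list. In LL, HYH (0.69, at 31.2 and 18.8 FPKM) and SULTR3;4 (0.67) were higher and HY5 was lower. The SULTR3;4 call survived in 3 of 8 fits with a library removed. In HL, SULTR3;1 was higher, at 43.4 and 30.1 FPKM (0.50, limma adjusted p = 0.0469), and HY5 was lower. The SULTR3;1 call survived in 2 of 8 such fits. In the response to HL, 3 genes were lower in hy5-2 than in Col-0, which were HY5, HYH (-0.94) and SULTR3;4 (-0.84, called in 5 of 16 fits with a library removed).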

How the data were processed

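The authors deposited 1 table of FPKM values per gene and library, with gene coordinates, per the file headers. The submitters' processing notes name CASAVA, HISAT2 2.0.5, HTSeq 0.6.1, DESeq2 1.20.0, DESeq and the build TAIR10, with no roles, and strand use is not given there. FPKM were tested as log2(FPKM + 1) with limma 3.58.1 in R 4.3.3 (empirical Bayes with a trend, 6 group means, 24 libraries, 9 contrasts), two-sided, over the 17788 genes that reached FPKM 1 in 4 or more libraries, with Benjamini-Hochberg adjustment. Called means an adjusted p under 0.05. Fragments were recovered from the FPKM steps and mean transcript lengths: 99.4% of 24962 genes came out whole within 0.05, all 10 members included. Depth per library was between 35408730 and 49341936 fragments. Each replicate is 1 plant. The labels do not say that a replicate number pairs plants, and the fit used no pairing. Of 60 same-numbered pairs of libraries, 12 had a correlation of deviations above 0.1, and the values ranged from -0.53 to 0.47. Between Col-0 HL and hy5-2 HL, 3 of the 4 Col-0 libraries correlated best with the hy5-2 library of their own number, so pairing is not excluded. Sequences came from RefSeq's TAIR10.1; 32548 of 34218 gene IDs matched and 99.95% of these had the same coordinates. Transcripts were compared with blastn 2.17.0. The fit was tested on simulated data.

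The 10 members and the wider list of 61 genes were chosen with earlier results of these data known. From the wider list, up to 2 higher and 2 lower genes were named per class and comparison, those called with the largest change. The most alike genes are the 5 with the highest Pearson r. No protein sequence is shown.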

Additional observations from a re-analysis of the deposited data

Results flagged for a closer look

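In 4 of 60 groups of 4 plants, 1 value lay far from the other three by Dixon's ratio at its 95% critical value of 0.829; chance flags about 1 in 20 groups. APR1 was at 64.8 FPKM in Col-0 LL replicate 2, beside 78.2 to 80.7 in the others. APR2 was at 62.2 FPKM in Col-0 LL replicate 3, beside 51.0 to 52.4. APS3 was at 9.02 FPKM in hy5-2 LL replicate 4, beside 17.2 to 18.5. LSU1 was at 23.4 FPKM in BBX32-10 LL replicate 4, beside 10.1 to 11.7, and SDI1 was also highest of its group in that library.

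The response to HL differed between BBX32-10 and Col-0 by the interaction term of limma for APR1 (-0.58, adjusted p = 0.0113), APR2 (-0.88, adjusted p = 0.00183) and APS2 (-0.71, adjusted p = 0.000709). Each was called in all 16 fits that left out 1 library.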

How the results depend on the processing

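For the 10 members, 1465 of the single-gene results under alternative settings kept their side of the threshold. Another 35 lost a call, 10 gained one and 0 changed direction as a called value. Values that were not called could change sign and still count among the 1465. LSU1 between BBX32-10 and Col-0 in LL did so, from 0.13 to as low as -0.13. For named genes of the wider list, whose alternatives were run after seeing the data, 1480 kept their call and 192 lost it. Fitting the compared groups alone left 1 of 10 members called in the BBX32-10 response, 4 between BBX32-10 and Col-0 in HL (APS2 and APS4 lost) and 1 (APR2) between hy5-2 and Col-0 in HL; a mean FPKM of at least 5 also called 1 there (LSU1). In the wider list, fitting the compared groups alone gave 4 calls in the BBX32-10 response, 11 between BBX32-10 and Col-0 in HL and 5 between hy5-2 and Col-0 in HL. In the last comparison a pseudocount of 0.1, no filter and the replicate block each gave 1, and voom gave 1 for the difference of the hy5-2 and Col-0 responses. Leaving out 1 library gave 2 to 3 members in the BBX32-10 response, 4 to 5 in hy5-2, 0 to 2 between hy5-2 and Col-0 in HL, 6 to 8 between BBX32-10 and Col-0 in LL and 5 to 7 in HL. In the wider list it gave 6 to 15 in the BBX32-10 response, 16 to 35 between BBX32-10 and Col-0 in HL and 1 to 2 between hy5-2 and Col-0 in HL. The counts of 6 and 35 came without BBX32-10 LL replicate 2 and BBX32-10 HL replicate 1, and the 2 members were LSU1 and SDI1 without Col-0 HL replicate 3. No filter and rescaling by median ratios each left 6 members called between BBX32-10 and Col-0 in LL. With the replicate number as a block, 7 members stayed called between BBX32-10 and Col-0 in LL, with APR2 lost, and no other call of a member changed. Calls over all genes were not counted in the fits of the compared groups alone or in those without 1 library. A gain or loss of calls over all genes can therefore not be told apart there. The cause of these changes was not tested.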
